A study of Mus musculus with 6 samples.

Results

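The circadian clock genes described here are the Period genes Per1, Per2 and Per3, the PAR bZIP transcription factors Dbp, Tef and Hlf, the Rev-erb nuclear receptors Nr1d1 and Nr1d2, and the repressors Ciart and Bhlhe41. They were taken by symbol, as 10 named genes, from 22184 genes that have a probe set of their own on the array. A value was obtained for 9 of the 10, because the only probe set that lists Per2 lists another symbol as well and was left out. For Tef, which has 2 probe sets, the brighter was used. The arrays carried RNA from aorta of 3 samples from mice deficient in endothelial nitric oxide synthase (eNOS, the product of Nos3, whose nitric oxide relaxes the vessel wall) and from 3 wild-type samples of matched age, named here by the numbers in their titles: eNOS-deficient 11, 15 and 19, and wild type 2, 3 and 5. The sources used here do not give the targeted allele, the strain, the sex or the hour at which tissue was taken. Nor do they state that each sample is a separate animal, so a p-value measures only the spread among these samples. Signals are on a log2 scale, on which a difference of 1 is a doubling.

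The mammalian clock is a feedback loop. A heterodimer of BMAL1 (encoded by Arntl) with CLOCK or NPAS2 binds E-box sequences and switches on the Period, Rev-erb, Dbp, Tef, Hlf, Ciart and Bhlhe41 genes, whose transcripts therefore peak at a similar time of day. PER proteins, CIART and BHLHE41 then oppose the heterodimer, the REV-ERB receptors silence Arntl, Npas2 and Nfil3 through response elements they share with the ROR activators, and DBP, TEF and HLF activate genes through D-box sequences that the repressor NFIL3 also binds. Arntl and its companions peak when the first set of genes is low. In the aorta, smooth muscle and endothelial cells both carry such a clock, and its output includes genes of vessel tone.

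Sequences through which the feedback runs are shown first. In the 250 bases before the annotated start (RefSeq, GRCm38.p6, 11 windows for 9 members, as Per1 and Tef have 2 starts), the E-box CACGTG, which reads the same on both strands, was found in windows of 4 members, Ciart, Per1, Tef and Bhlhe41. Tef has it in both of its windows and Per1 in 1 of 2. It also lies in the window of Cry1, which is not a member, and in 6.02% of all 32851 such windows. Members are counted here by gene and the share by window. The D-box TTATGTAA was searched on both strands and was found in Per3 alone among the members, in 2 copies, against 0.819% of all windows. The Rev-erb and ROR element TAGGTCA, also searched on both strands, was found in 0 member windows, against 2.23% of all windows. It was found in the window of Nfil3 but not in those of Arntl and Npas2. The cyclic AMP response element TGACGTCA lies in the Hlf window and in 1.55% of all windows. None of these motifs overlap in the windows searched, and a match is a run of letters, not a measured site. The 4 windows below carry an E-box (Ciart at chr3:95882229-95882478, minus strand, and Per1 at chr11:69098699-69098948, plus strand), a D-box (Per3 at chr4:151044666-151044915, minus strand) or the Rev-erb and ROR element on the opposite strand (Nfil3 at chr13:52981040-52981289, minus strand). They are written 5′ to 3′ along the gene, with the motif in capitals.
Ciart: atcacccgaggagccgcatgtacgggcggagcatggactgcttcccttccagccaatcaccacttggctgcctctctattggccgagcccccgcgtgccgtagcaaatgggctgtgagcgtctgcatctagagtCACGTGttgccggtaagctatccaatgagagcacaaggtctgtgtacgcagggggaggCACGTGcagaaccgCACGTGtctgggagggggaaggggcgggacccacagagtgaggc
Per1: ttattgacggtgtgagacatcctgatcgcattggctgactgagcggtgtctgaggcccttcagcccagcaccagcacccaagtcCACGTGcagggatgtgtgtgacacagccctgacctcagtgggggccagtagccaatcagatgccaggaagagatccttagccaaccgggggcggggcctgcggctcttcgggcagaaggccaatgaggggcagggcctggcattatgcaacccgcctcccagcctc
Per3: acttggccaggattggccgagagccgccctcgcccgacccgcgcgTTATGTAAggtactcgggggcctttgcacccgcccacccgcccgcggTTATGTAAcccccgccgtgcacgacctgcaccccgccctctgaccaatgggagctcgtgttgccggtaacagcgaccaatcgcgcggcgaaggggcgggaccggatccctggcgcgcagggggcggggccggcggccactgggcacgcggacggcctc
Nfil3: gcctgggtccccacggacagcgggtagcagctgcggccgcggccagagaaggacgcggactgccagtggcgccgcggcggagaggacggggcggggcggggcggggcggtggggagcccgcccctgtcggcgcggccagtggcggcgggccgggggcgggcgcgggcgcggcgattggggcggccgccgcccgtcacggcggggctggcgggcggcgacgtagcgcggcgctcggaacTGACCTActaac
The 3 E-boxes of Ciart begin 116, 58 and 44 bases before the start, that of Per1 166 bases before it, and the D-boxes of Per3 205 and 158 bases before it. The members are scattered over the genome, with Per1, Hlf and Nr1d1 on chromosome 11, and 0 of the 10 lie on chromosome 5, which carries Nos3.

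In eNOS-deficient aorta the mean signal of 8 of the 9 measured genes lay below that of wild type, by 0.41 to 1.06 log2, and that of Nr1d1 lay 0.25 above it, beside 43.4% of all genes with a difference below 0. No member passed the test over all genes: in limma, with Benjamini-Hochberg adjustment over 18008 genes, 0 of 9 had an adjusted p under 0.05 (adjusted p 0.236 to 0.687), where 0.0278% of all genes did. At an unadjusted p under 0.05, 5 of 9 were lower (Ciart, Dbp, Per3, Tef and Nr1d2) and 0 higher, beside 3.72% of all genes lower. The groups of arrays did not overlap for 4 of 9, each with the eNOS-deficient arrays lower, beside 6.47% of all genes. A mean at least 1.5-fold lower was seen for 5 of 9, beside 2.34% of all genes. The median difference of the 9 was -0.69 log2, against 0.036 over all genes tested.

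**Figure D1:**
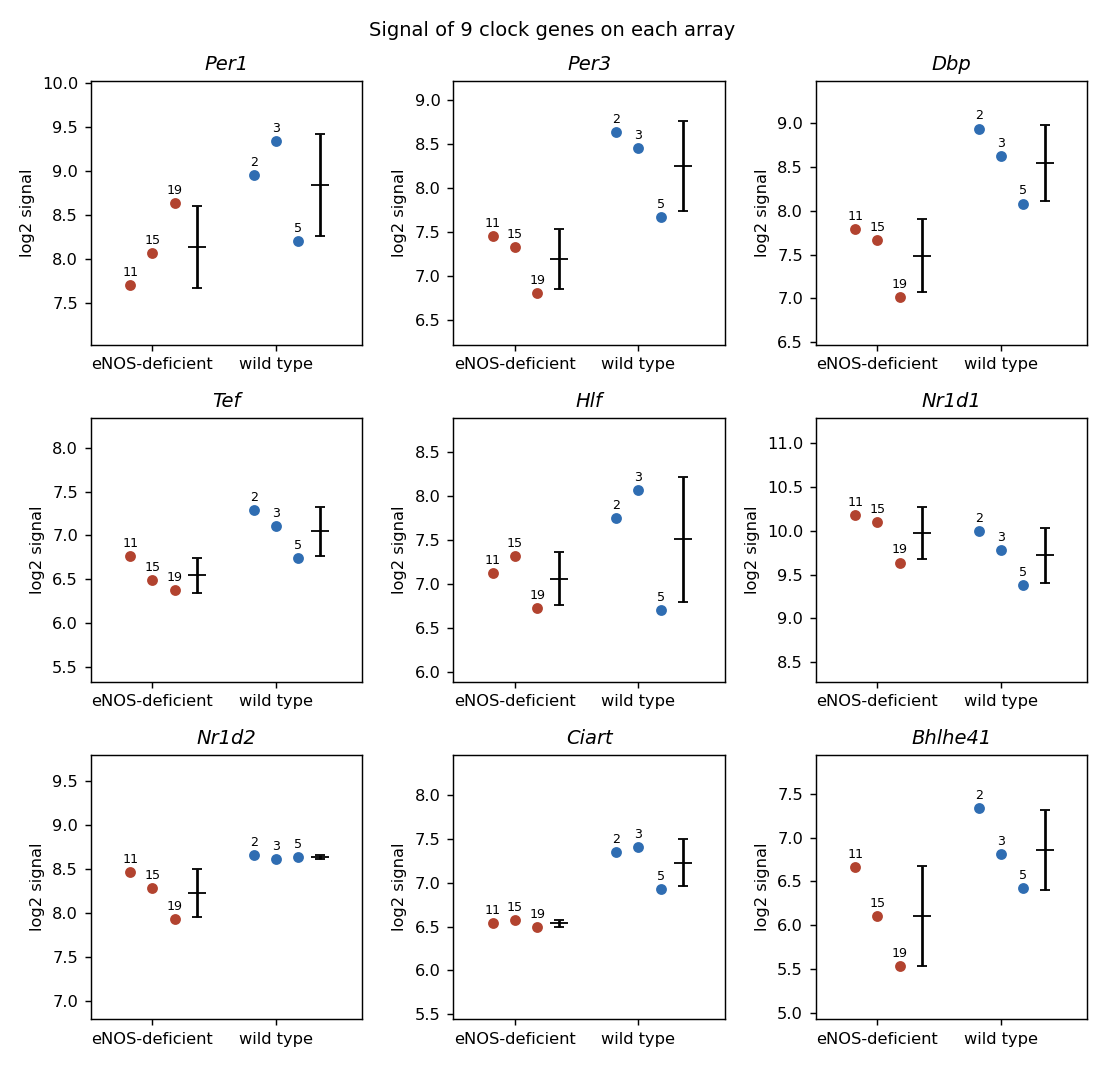
Log2 signal (vertical axis, each panel spanning 3 log2 units) of the 9 measured genes on the 3 eNOS-deficient arrays (red) and 3 wild-type arrays (blue), each point labelled with its sample number, beside the mean and SD of each group. The groups are apart for Per3, Dbp, Nr1d2 and Ciart, and wild type 5 is the lowest wild-type array in every panel but that of Nr1d2.

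The Period genes encode repressors of the loop, and values were obtained for Per1 and Per3 only. Per3 measured 7.45, 7.33 and 6.81 on eNOS-deficient 11, 15 and 19, and 8.64, 8.46 and 7.67 on wild type 2, 3 and 5. All eNOS-deficient arrays lay below all wild-type arrays, with a gap of 0.22 set by wild type 5. The means were 7.20 ± 0.34 (SD, n = 3) and 8.25 ± 0.52, a difference of -1.06 (95% interval -1.73 to -0.39, limma adjusted p = 0.289), which is 2.08-fold. Per1, which light, cyclic AMP and glucocorticoids also induce directly, measured 7.71, 8.07 and 8.63 on eNOS-deficient 11, 15 and 19 and 8.96, 9.35 and 8.21 on wild type 2, 3 and 5. Its groups overlapped, because eNOS-deficient 19 lay above wild type 5. The Per1 means were 8.14 ± 0.47 (SD, n = 3) and 8.84 ± 0.58, a difference of -0.70 (interval -1.49 to 0.086, limma adjusted p = 0.479). Among the eNOS-deficient arrays, number 19 was thus the highest for Per1 and the lowest for Per3.

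Of the PAR bZIP activators, Dbp, an output gene known for a large daily swing, measured 7.79, 7.66 and 7.02 on eNOS-deficient 11, 15 and 19 and 8.93, 8.62 and 8.08 on wild type 2, 3 and 5. The groups did not overlap, and the gap was 0.29. The means were 7.49 ± 0.41 (SD, n = 3) and 8.55 ± 0.43, a difference of -1.06 (interval -1.71 to -0.41, limma adjusted p = 0.289). Tef, a related activator, measured 6.77, 6.49 and 6.38 on the eNOS-deficient arrays and 7.29, 7.11 and 6.74 on wild type 2, 3 and 5. The groups touched, as eNOS-deficient 11 lay just above wild type 5. The Tef difference was -0.50 (interval -0.92 to -0.079, limma adjusted p = 0.375). A dimmer second probe set of Tef, at a mean of 5.49, gave 0.27 in the other direction, so that the 2 probe sets of this gene disagree. Hlf, the third member of the family, measured 7.12, 7.32 and 6.73 on the eNOS-deficient arrays and 7.75, 8.07 and 6.70 on wild type 2, 3 and 5. Here wild type 5 was the lowest of all 6 arrays, and the Hlf difference of -0.45 (interval -1.27 to 0.36, limma adjusted p = 0.660) was smaller than the wild-type SD of 0.71.

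Among the repressors, Ciart, which encodes a protein that binds BMAL1 and inhibits it, had the smallest p of the 9. It measured 6.54, 6.57 and 6.49 on eNOS-deficient 11, 15 and 19, a span narrower than that of any other member in that genotype, and 7.35, 7.41 and 6.93 on wild type 2, 3 and 5. The groups were apart by 0.35, the widest gap among the members. The Ciart means were 6.54 ± 0.042 (SD, n = 3) and 7.23 ± 0.26, a difference of -0.69 (interval -1.05 to -0.33, limma unadjusted p = 0.00251, adjusted p = 0.236). Bhlhe41, also called Dec2, which competes for E-boxes, measured 6.67, 6.11 and 5.54 against 7.33, 6.81 and 6.43 on wild type 2, 3 and 5. Its spread within each genotype was wide and eNOS-deficient 11 lay above wild type 5, so the difference of -0.75 (interval -1.52 to 0.015, limma adjusted p = 0.435) did not separate the groups.

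The Rev-erb receptors, which silence the same targets, gave different values. Nr1d2 (REV-ERB beta) measured 8.46, 8.28 and 7.93 on eNOS-deficient 11, 15 and 19, and 8.66, 8.62 and 8.63 on wild type 2, 3 and 5. The wild-type arrays were nearly identical (SD 0.020) and all above the eNOS-deficient arrays, with a difference of -0.41 (interval -0.78 to -0.047, limma adjusted p = 0.387). Nr1d1 (REV-ERB alpha) measured 10.18, 10.10 and 9.64 on the eNOS-deficient arrays and 9.997, 9.78 and 9.38 on wild type 2, 3 and 5. The groups interleaved, with 2 eNOS-deficient arrays above every wild-type array. The Nr1d1 means were 9.97 ± 0.29 (SD, n = 3) and 9.72 ± 0.31, a difference of 0.25 (interval -0.24 to 0.75, limma adjusted p = 0.687), and without eNOS-deficient 11 and wild type 5 the difference was -0.020.

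**Figure D2:**
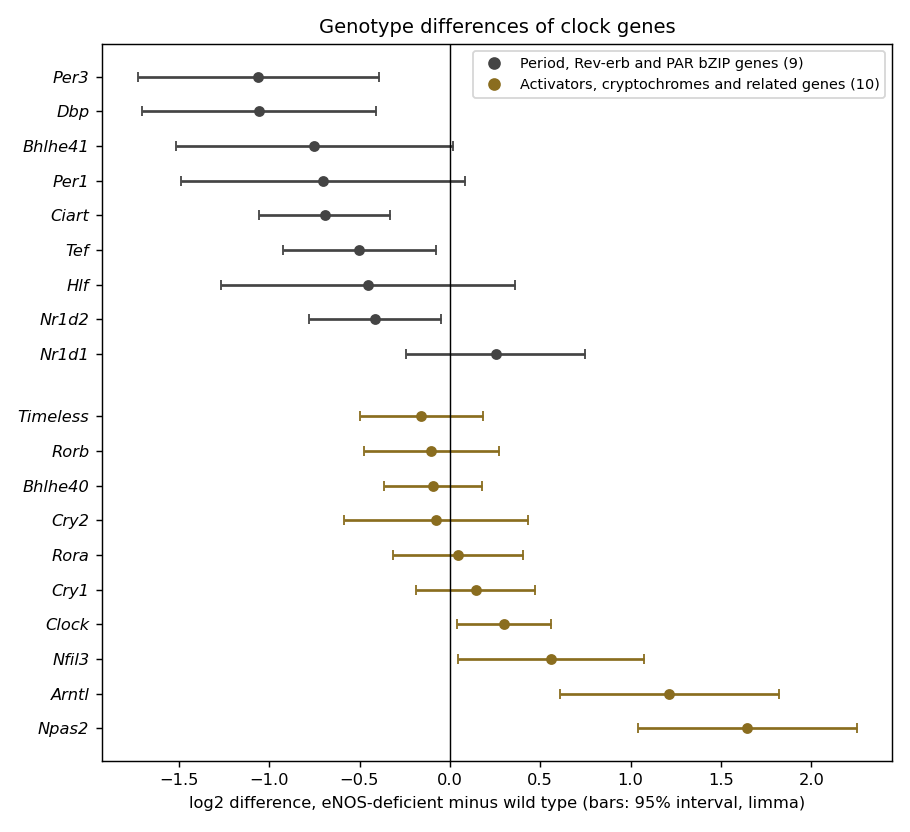
Log2 difference (horizontal axis, eNOS-deficient minus wild type) with its 95% interval from limma for the 9 measured genes (grey) and for 10 activators, cryptochromes and related clock genes (brown). Among the 9, the intervals of Per3, Dbp, Ciart, Tef and Nr1d2 lie below 0, and among the 10 those of Npas2, Arntl, Nfil3 and Clock lie above 0, while no gene shown passed the adjusted threshold.

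Whether any pair of members differed in their genotype difference was tested on the within-array difference of their log2 values, over all 36 pairs of members. The genotypes did not overlap in 12 pairs. Each of these has a two-sided exact permutation p of 0.1, the smallest that 3 arrays against 3 can give, and 0.3 after adjustment over the 36, so no pair could pass. The share of pairs without overlap among all genes was not computed. The 36 pairs reuse the same 9 genes, so the count of 12 is only a description. Nr1d1, the only member with a higher mean in eNOS-deficient aorta, took part in 7 of the 12, of the 8 pairs it belongs to, with Per1 as the exception. The genotype difference of Dbp was -1.31 relative to that of Nr1d1, and so was that of Per3. That of Nr1d1 was 1.004 above that of Bhlhe41 and 0.67 above that of Nr1d2. The other 5 pairs without overlap were Per3 with Tef and Hlf, and Dbp with Tef, Nr1d2 and Bhlhe41. Per3 and Dbp ran side by side. Their within-array difference varied with an SD of 0.092 over the 6 arrays, the smallest of the 36 pairs, and it differed between genotypes by -0.0019 (exact permutation p = 1). For Per1 and Per3 that SD was 0.58.

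Most members also shared the array with the lowest value in each genotype. On eNOS-deficient 19, 8 of the 9 were at the lowest value of their group, all but Per1. On wild type 5, 8 of the 9 were at the lowest wild-type value, all but Nr1d2. The highest values were less shared, on eNOS-deficient 11 for 6 members, 15 for 2 and 19 for 1, and on wild type 2 for 6 and wild type 3 for 3. Averaged over the 9 and set against the wild-type mean, eNOS-deficient 11, 15 and 19 lay at -0.44, -0.52 and -0.83 log2, and wild type 2, 3 and 5 at 0.25, 0.18 and -0.43. Wild type 5 was therefore level with eNOS-deficient 11 and below the other wild-type arrays. The spread within genotypes was wide for most members: the median residual SD was 0.42 log2 against 0.19 over all genes tested, although Nr1d2 and Ciart, at 0.19 each, were like the typical gene.

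**Figure D3:**
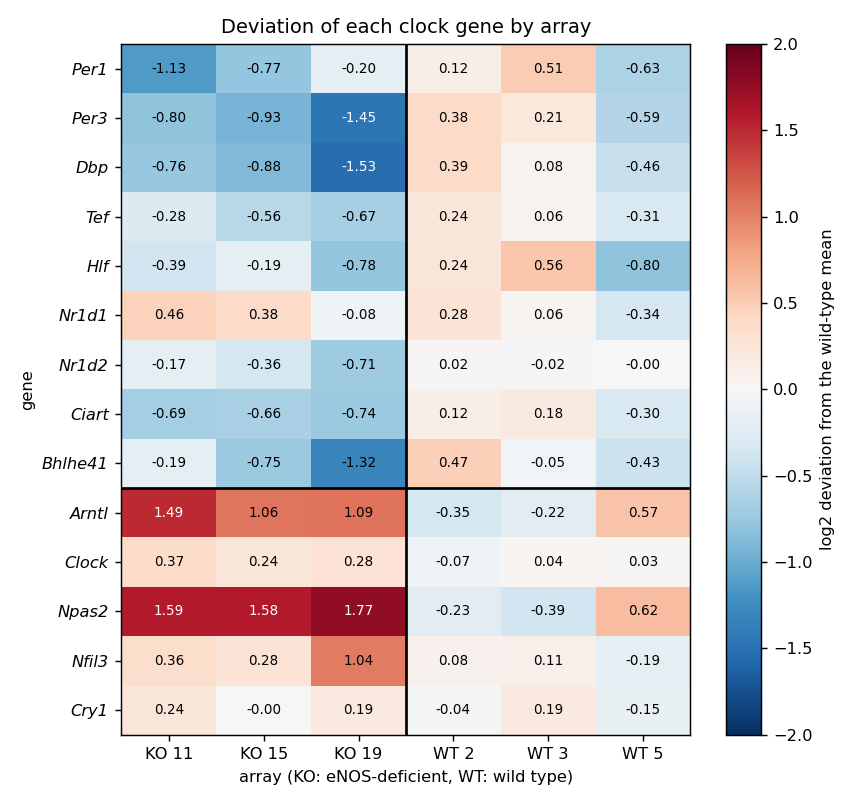
Log2 deviation from the wild-type mean (colour and printed value) of the 9 measured genes, above the line, and of 5 genes of the opposite phase, below it, on each array. Wild type 5 is negative for all 9 genes above the line. Below it, wild type 5 is positive for Arntl and Npas2, near 0 for Clock and negative for Nfil3 and Cry1.

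Other core genes of the loop, the activators, the cryptochromes and related repressors, were described from a list of which 10 genes were measured. In limma 0 of 10 passed the adjusted threshold, while an unadjusted p under 0.05 was reached by 4 with a higher and 0 with a lower mean, beside 7.86% of all genes higher. For these 4, Npas2, Arntl, Clock and Nfil3, the eNOS-deficient arrays all lay above the wild-type arrays, which holds for 13.1% of all genes. Npas2, a partner of BMAL1, measured 7.49, 7.48 and 7.68 on the eNOS-deficient arrays and 5.67, 5.52 and 6.52 on wild type 2, 3 and 5, a difference of 1.65 (interval 1.04 to 2.25, limma adjusted p = 0.198). Arntl, the gene of BMAL1, measured 8.04, 7.61 and 7.63 against 6.19, 6.33 and 7.12, a difference of 1.21 (interval 0.61 to 1.82, limma adjusted p = 0.226). In both genes wild type 5 was the wild-type array nearest to the eNOS-deficient arrays, as it was for Per3, Dbp and Ciart. Nfil3, the D-box repressor, differed by 0.56 (standard error 0.22) and Clock by 0.30 (standard error 0.11). For Nfil3 wild type 5 was the farthest from the eNOS-deficient arrays, at 6.26 against 6.53 and 6.55 on wild type 2 and 3, and for Clock wild type 3 was the nearest.

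The remaining 6 of that list differed little. The cryptochrome genes, whose proteins act with PER, gave 0.14 for Cry1 and -0.076 for Cry2. Rora and Rorb, which activate through the element that REV-ERB silences, gave 0.046 and -0.10. Bhlhe40, the close relative of Bhlhe41, differed by -0.093 (interval -0.36 to 0.18), and Timeless by -0.16. Of these, Cry2, Rora and Rorb change sign when single arrays are left out. The kinases and ubiquitin ligases that set PER and CRY turnover had 0 of 8 measured genes at an unadjusted p under 0.05 in limma. Of all genes, 11.6% reached that level, higher or lower. Past the adjusted threshold were 0 of the 8, beside 0.0278% of all genes, and the differences ran from -0.11 to 0.19. The most different by p were Fbxw11 (0.19), Fbxl21 (0.18), Gsk3b (0.091) and Csnk1a1 (-0.076). A list of 7 genes driven through E-boxes in other tissues, of which Bhlhe40 is also in the list above, had a median of -0.063. It likewise had 0 at an unadjusted p under 0.05 (beside 11.6% of all genes) and 0 past the adjusted threshold in limma (beside 0.0278%). The cell cycle kinase gene Wee1 gave -0.32 (interval -0.81 to 0.17), Nampt, of NAD synthesis, 0.19, and Rgs16 -0.063.

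Arntl, Clock, Npas2, Nfil3 and Cry1 were averaged as the opposite-phase group. Their mean deviation from wild type was 0.81, 0.63 and 0.88 log2 on eNOS-deficient 11, 15 and 19, and -0.12, -0.054 and 0.17 on wild type 2, 3 and 5. The opposite-phase mean less that of the 9 members was 1.25, 1.15 and 1.71 on the eNOS-deficient arrays against -0.37, -0.23 and 0.60 on the wild-type arrays. Wild type 5 lay between the other wild-type arrays and all eNOS-deficient arrays on this measure, which is given as a description because its genes were chosen with these data known.

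**Figure D4:**
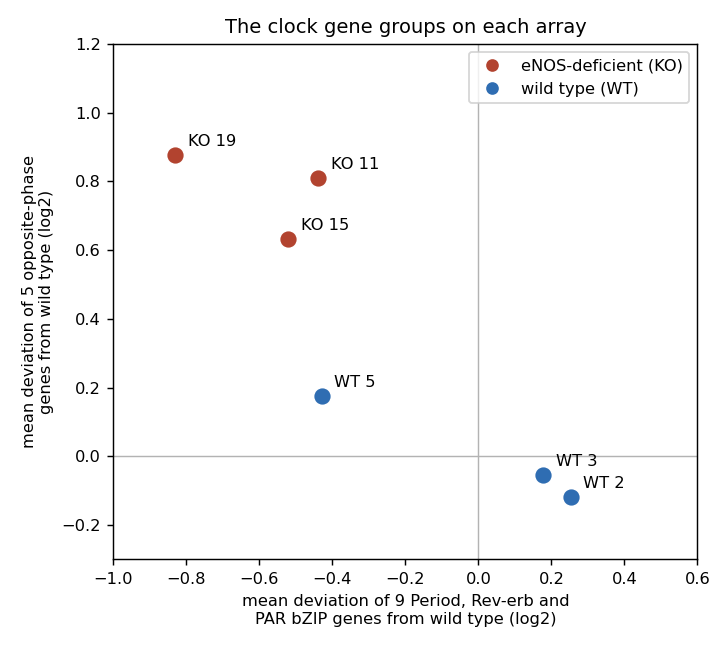
Mean deviation from wild type of the 9 measured genes (horizontal axis, log2) against that of the 5 opposite-phase genes (vertical axis, log2), with a labelled point for each array. Wild type 5 shares the horizontal position of eNOS-deficient 11 (-0.43 and -0.44) but lies at 0.17 on the vertical axis against 0.81.

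The genes whose profile over the 6 arrays was nearest to the mean of the members, by root mean square distance of the deviations from each gene's own mean, were Actl9 (0.068 log2), Icam5 (0.12), Kcng1 (0.12), Rab4a (0.12), Gxylt1 (0.12) and Prnd (0.13). Actl9 ran from 4.41 to 5.37 and Icam5 from 4.61 to 5.52, close to the filter level of 4.38. Icam5, Gxylt1 and Prnd have 2 probe sets each, and the brighter was used. With the mean of the probe sets their differences were -0.25, -0.18 and -0.29, against -0.47, -0.49 and -0.51 with the brighter. The members themselves lay 0.12 (Tef) to 0.49 (Nr1d1) from the mean of their fellow members, and Ciart at 0.15 was the next nearest. Nearest to the inverted profile were Sh3gl2 (0.062), the lysosomal protease gene Ctsc (0.067), Mustn1 (0.074) and Aoah (0.075), a gene of myeloid cells. Sh3gl2 has 3 probe sets, and its difference of 0.55 was 0.20 at the least under the alternative fits given below. How many of the 18008 genes lie within such distances was not counted. The distances rest on 6 arrays and are a description.

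The array and tissue facts that touch these values are as follows. Array medians ran from 5.55 to 5.68, and at most 0.109% of values were identical between any 2 arrays. Nos3 measured 7.13 to 7.39 on the eNOS-deficient arrays and 7.36 to 7.99 on the wild-type arrays, a difference of -0.48 (limma adjusted p = 0.399) with wild type 5 inside the eNOS-deficient range, and without the allele this probe set does not check the labels. The smooth muscle gene Acta2 was bright throughout (12.30 to 12.80), as was Ucp1, the uncoupling protein of brown fat (12.91 to 13.12). Below, a gene is apart where its groups of arrays did not overlap, as for 13.1% of all genes higher and 6.47% lower. Marker genes apart were higher in eNOS-deficient aorta, except the 2 of squamous epithelium and Lep. The 6 measured squamous epithelium markers, apart in 2 of 6, were all lower on average in eNOS-deficient aorta. They averaged 4.93 to 5.26 on the eNOS-deficient arrays and 5.39 to 9.52 on the wild-type arrays, the highest on wild type 5. The 3 measured Y-linked genes, apart in 3 of 3, averaged 4.71 to 8.002 against 3.47 to 3.63, lowest among the eNOS-deficient arrays on number 15. The wild-type averages lay under the filter level of 4.38, and that of number 15, at 4.71, just above it. The sex of the samples is not given. For the clock genes, a difference in sex between the groups therefore cannot be told apart from one in genotype. The 7 macrophage markers, apart in 7 of 7, averaged 8.31 to 8.66 against 7.40 to 7.86, and the 7 fibroblast markers, apart in 3 of 7, 9.48 to 9.76 against 8.82 to 9.33. Skeletal muscle markers, apart in 0 of 7, averaged 10.42 to 11.86 against 9.43 to 11.37. Lymphocyte markers, apart in 0 of 6, averaged 5.94 to 8.79 against 7.74 to 8.29, and endothelial markers, apart in 1 of 7, 8.51 to 8.88 against 8.47 to 9.18. The endothelial gene apart was Emcn, which was higher, while 5 of the 7 were lower on average. Smooth muscle markers, apart in 4 of 7, averaged 9.66 to 9.95 against 9.22 to 9.69. Brown adipocyte markers, apart in 3 of 7, averaged 11.08 to 11.28 against 10.88 to 11.03. Adipocyte markers, apart in 2 of 7 (Adipoq higher, Lep lower), averaged 10.54 to 10.63 against 10.23 to 10.76. Schwann cell markers, apart in 0 of 3, averaged 7.24 to 7.28 against 7.14 to 7.16. The part of any of these in the clock gene values was not tested, and in whole tissue fewer cells of a type and less RNA per cell cannot be told apart.

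With each array left out in turn, 0 of 9 members passed the adjusted threshold in limma in every one of the 6 fits, and 8 of 9 stayed below 0. The members lower at an unadjusted p under 0.05 numbered 3 without eNOS-deficient 15 (beside 2.38% of all genes), 3 without wild type 2 (3.10%), 3 without wild type 3 (4.03%), 4 without eNOS-deficient 19 (2.75%), 6 without eNOS-deficient 11 (3.11%) and 7 without wild type 5 (5.93%). Wild type 5 held the lowest value of its group for 8 of the 9 members, so leaving it out lowers these differences by construction, and the count without it is no support for them. Hlf differed by -0.17 without wild type 3, -0.29 without eNOS-deficient 19 and -0.85 without wild type 5. Without eNOS-deficient 19, Bhlhe41 differed by -0.47 and Nr1d2 by -0.27, and without wild type 3 Per1 differed by -0.45. Nr1d1 ran from 0.083 without wild type 5 to 0.42 without eNOS-deficient 19. Per3 ran from -1.35 to -0.86, Dbp from -1.29 to -0.82, Tef from -0.65 to -0.38 and Ciart from -0.84 to -0.60. The difference of Nfil3 was 0.32 without eNOS-deficient 19. Npas2 ran from 1.45 to 1.95, and its highest value, without wild type 5, was the only one of the 6 to pass (limma adjusted p = 0.0298). Wild type 5 lay nearest to the eNOS-deficient arrays for Npas2. Leaving it out therefore raises the difference by construction, and this pass is no support for it.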

How the data were processed

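RNA from 3 eNOS-deficient and 3 wild-type samples of aorta was measured on 1 Affymetrix array each (300 ng of RNA, per the labels). The deposited log2 values came from RMA in Affymetrix Expression Console 1.3.1, per the submitters' processing notes, and were used unchanged. The genome build is not given in the sources used here.

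Of 41345 probe sets, 23525 list 1 gene symbol in the platform annotation, 1810 several and 16010 none. The brightest single-symbol probe set was kept per gene, and 18008 genes with a mean of at least 4.38 log2 (the 25th percentile) were tested, all 9 members with a value among them. limma 3.58.1 in R 4.3.3 (lmFit, eBayes, no covariates, two-sided) was used. On simulated data for 18008 genes it recovered 10% of changes at a fold of 1.5, 58% at 2 and 86% at 4, with 5 false calls. The changed genes were drawn from all genes, with independent noise at each gene's own residual SD. The members had a median residual SD of 0.42 against 0.19 over all genes and shared their low arrays. These rates are therefore not rates for the members. The number of arrays limits the precision (median standard error 0.156). Plots used matplotlib 3.10.9 in Python 3.11.15.

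The members and lists were chosen with earlier results of these data known. Named genes are all members, the list of core clock activators and cryptochromes, up to 4 genes of each other list by smallest p, and the genes of nearest profile, without predicted genes, pseudogenes, chemosensory receptors or small RNAs. Alternatives were other filters, variance models, scalings and probe set rules, array weights, a threshold of 0.1, and arrays left out.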

Additional observations from a re-analysis of the deposited data

How the results depend on the processing

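No paired analysis was run, because the sources used here state no pairing of samples, and the sample numbers (11, 15 and 19 against 2, 3 and 5) give none. Under 14 alternatives to the fit, 123 of 126 member differences kept their direction and stayed short of the adjusted threshold, and at a threshold of 0.1 the count of members called was 0. With estimated array weights, which ran from 0.30 for wild type 5 to 2.92 for eNOS-deficient 15, 2 members passed, Per3 and Ciart (limma adjusted p = 0.0492 and 0.0455), as did Npas2 and Arntl. That fit called 119 of 18008 genes, against 5 with equal weights. The other exception is Nr1d1, at -0.020 without eNOS-deficient 11 and wild type 5. Tef kept its direction but not its size. With its 2 probe sets averaged it differed by -0.12 (limma adjusted p = 0.772), against -0.50 with the brighter alone. Members lower at an unadjusted p then numbered 4, beside 3.71% of all genes. The size of the Tef difference thus depended on the probe set rule. With single arrays left out, members called stayed at 0, members lower at an unadjusted p ran from 3 to 7, and their median difference from -0.85 to -0.47. Opposite-phase genes higher at an unadjusted p ran from 2 to 3 in these fits, against 4 with all arrays. Beside them, 894 to 1608 of all 18008 genes were higher in these fits, against 1415 with all arrays. Members lower at an unadjusted p numbered 3 with arrays centred on their medians, which moves the median of all genes from 0.036 to 0.10 (beside 2.15% of all genes lower), 8 with array weights (7.22%), and 8 without eNOS-deficient 11 and wild type 5 (6.203%), against 5 (3.72%) with none of these changes. Without that pair opposite-phase genes higher at an unadjusted p numbered 2, beside 1706 of all 18008 genes. Of the 9 members, 8 had their lowest wild-type value on wild type 5 and 6 their highest eNOS-deficient value on eNOS-deficient 11. Leaving both arrays out therefore lowers most member differences by construction, and the low weight of wild type 5 acts in the same direction. The counts of 8, and the 2 members that passed with array weights, are no support for these differences. Npas2 and Arntl had wild type 5 as the wild-type array nearest to the eNOS-deficient arrays. Its low weight therefore raises their differences by construction, and their passing is no support either. The cause of the other changes was not tested. Differences of other genes that changed sign were Rora (-0.096 to 0.14 with single arrays left out, -0.024 after repeated quantile normalization, -0.075 without eNOS-deficient 11 and wild type 5), Cry2 (-0.27 to 0.068) and Rorb (-0.21 to 0.028) with single arrays left out, Gsk3b (-0.0018 after repeated quantile normalization), Rgs16 (0.0026 with arrays centred, 0.037 without that pair of arrays) and Fos (0.45 with all arrays, -0.21 without that pair).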

Other observations

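Per1 and, in some tissues, other members also answer to glucocorticoids and to immediate early signals, so genes of those responses were set beside them. Of 11 glucocorticoid responsive genes, 0 passed the adjusted threshold in limma, beside 0.0278% of all genes. An unadjusted p under 0.05 was reached by 2, both higher, beside 7.86% of all genes higher. Cdkn1a, a cell cycle inhibitor, was higher by 1.04 (interval 0.081 to 2.003), and the metallothionein gene Mt2 by 0.56 (interval 0.010 to 1.11). The groups of arrays overlapped for both. Wild type 5, at 9.13 for Cdkn1a and 9.70 for Mt2, lay above the lowest eNOS-deficient values of 8.85 and 9.66. Zbtb16 differed by 0.59 (interval -0.043 to 1.23) and Mt1 by 0.16 (interval -0.12 to 0.44). Mt1 was the only gene of the 11 whose groups did not overlap, beside 13.1% of all genes higher. The list median was 0.17, and 10 of the 11 differences were positive, beside 56.6% of all genes. The part of these signals in the clock gene values was not tested.

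Of 11 immediate early genes, 0 passed the adjusted threshold in limma (beside 0.0278% of all genes) and 0 had an unadjusted p under 0.05 (beside 11.6%, higher or lower). The list median was 0.12. Egr2 differed by 0.26 (interval -0.059 to 0.58) with the eNOS-deficient arrays above all wild-type arrays, Jun by 0.39 (interval -0.24 to 1.03), Junb by 0.18 (interval -0.12 to 0.48) and Fos by 0.45 (interval -0.40 to 1.31), or 0.090 without eNOS-deficient 11 and -0.21 without eNOS-deficient 11 and wild type 5.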
